A study of Homo sapiens with 6 samples.

Results

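The 36 genes described here are zinc finger genes of the ZNF cluster in band 19q13.41, picked by gene symbol from the 60607 genes in the transcript tables, by a rule that reads no measured value. They lie on chr19:51571298-53580269 (GRCh38, GENCODE 29), a stretch of 2.01 Mb, with 20 members on the minus strand and 16 on the plus strand. The cells were PLC/PRF/5, an established human hepatocellular carcinoma line. They received either siSlu7, siRNAs that target the splicing factor SLU7 (the knockdown), or siGL2, a siRNA of no relevance to it (the control). RNA was taken 48 h after transfection and sequenced from 3 knockdown and 3 control libraries, so both groups are cultures of 1 cell line that went through siRNA transfection. The labels call the libraries of a group triplicates without saying that they came from separate cultures. The spread behind every p-value is therefore that between these libraries, and it may be technical.

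Most proteins of this kind carry an array of C2H2 zinc fingers, each finger reading a few bases of DNA, and many carry in front of the array a KRAB domain that recruits the corepressor TRIM28. TRIM28 brings the histone methyltransferase SETDB1 and heterochromatin protein 1, and the bound DNA, often a transposable element, is packed into heterochromatin. The human clusters on chromosome 19 arose largely by tandem duplication, which left neighbours with similar sequence. SLU7 acts in the second step of splicing, in which the exons are joined.

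The similarity is visible in the coding sequence, and it sets how far short reads can be assigned to one member. The lines below each give 84 bases, the length of 1 finger with its linker, from 1 transcript of each of 6 members, 5′ to 3′ on the coding strand (GRCh38). They are shown because these genes are among those described below. The capitals mark 31 bases that are identical in all 6 and that include the conserved linker between neighbouring fingers, and the lower-case bases hold the part of the finger that contacts DNA.
ZNF600 (chr19:52767036-52767119, minus strand): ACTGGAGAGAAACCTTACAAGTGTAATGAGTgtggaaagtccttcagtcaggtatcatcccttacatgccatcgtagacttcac
ZNF28 (chr19:52799958-52800041, minus strand): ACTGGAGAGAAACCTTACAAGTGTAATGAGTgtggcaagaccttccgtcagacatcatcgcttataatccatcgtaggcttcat
ZNF468 (chr19:52840827-52840910, minus strand): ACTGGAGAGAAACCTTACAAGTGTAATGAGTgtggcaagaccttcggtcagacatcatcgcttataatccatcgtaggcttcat
ZNF816 (chr19:52950770-52950853, minus strand): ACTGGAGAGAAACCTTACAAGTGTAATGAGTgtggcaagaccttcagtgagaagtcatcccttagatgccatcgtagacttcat
ZNF665 (chr19:53165638-53165721, minus strand): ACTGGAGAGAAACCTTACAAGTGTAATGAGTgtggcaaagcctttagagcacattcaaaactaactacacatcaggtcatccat
ZNF761 (chr19:53455552-53455635, plus strand): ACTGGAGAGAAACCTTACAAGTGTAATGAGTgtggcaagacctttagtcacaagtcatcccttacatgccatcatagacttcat
Each window was placed to start with these 31 bases, so their identity in all 6 lines follows from that choice. These 31 bases occurred in transcripts of 15 members and of 27 genes in all, and in the coding sequence of 13 members. They were chosen as shared bases, so these counts do not stand for a typical stretch. The shares over all words are given below. A word of 31 bases is the unit that kallisto, the quantifier named in the submitters' processing notes, uses by default to assign reads.

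Over all transcripts of a member in GENCODE 29, between 2.45% and 79.4% of its distinct 31-base words also occurred in another gene, with a median of 12.8%. The same median was 6.62% over 28 genes of the KRAB corepressor and heterochromatin machinery. The deposited counts carry other versions of many of these genes, so the shares among the quantified transcripts may differ. The shares were highest for ZNF320 (79.4%) and ZNF468 (63.3%), whose gene bodies overlap in the annotation, and were 36.7% for ZNF808, 25.9% for ZNF28 and 25.4% for ZNF600. They were 8.51% for ZNF677, 5.05% for ZNF331 and 2.45% for ZNF175. Overlap on the same strand was annotated for 6 pairs of members, namely ZNF577 with ZNF649, ZNF432 with ZNF841, ZNF808 with ZNF701, ZNF28 with ZNF468, ZNF468 with ZNF320, and ZNF415 with ZNF347. The values of these genes, and of their transcripts, carry an uncertainty from the splitting of reads that was not part of the tests. The strand setting is not given in the sources used here, so reads from a member and from an antisense partner cannot be told apart.

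**Figure D1:**
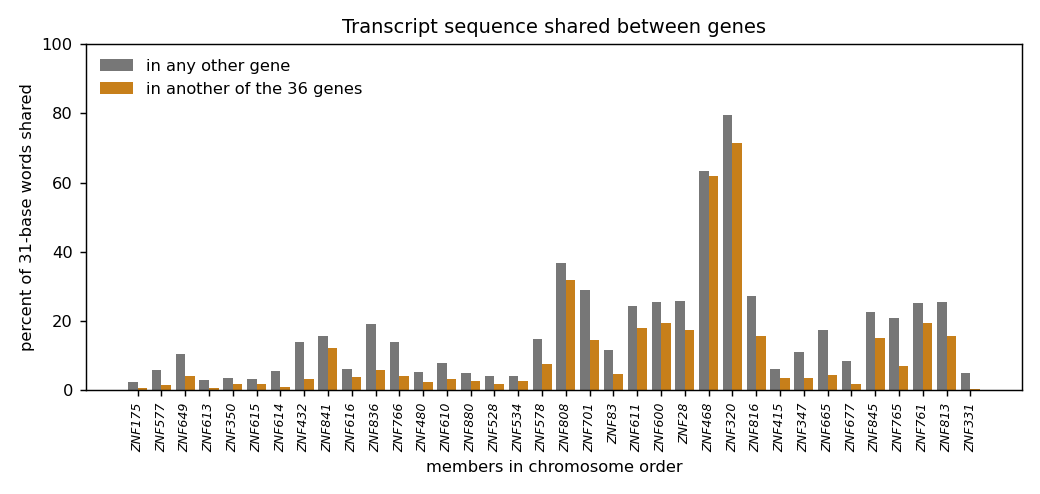
Percent of each member's distinct 31-base transcript words that also occur in any other gene (grey bars) or in another of the 36 genes (orange bars), members in chromosome order. ZNF468 and ZNF320 stand out at 63.3% and 79.4%, while ZNF175 and ZNF331 share 2.45% and 5.05%.

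The knockdown libraries held 5191452 to 6315740 estimated counts and the control libraries 7736584 to 8693977, so every control was deeper than every knockdown. Mitochondrial ribosomal RNA took 29.9% to 35.3% of the counts in the knockdowns and 16.8% to 24.1% in the controls, and 7SL RNA took 8.09% to 10.6% in the knockdowns and 15.8% to 23.5% in the controls; the part of these shifts in the results below was not tested beyond the fit without these RNAs. SLU7 had 9.34, 8.26 and 10.5 CPM (estimated counts scaled to library size with TMM factors) in the knockdowns, against 20.9, 17.2 and 18.4 CPM in the controls. Its log2 fold change was -1.002 (SE 0.18, adjusted p = 0.0139, edgeR). Control replicate 1 and knockdown replicate 3 deviated from their group means together (r = 0.44 across genes), the highest of the 9 pairings of a knockdown with a control, while knockdown replicate 1 did so with control replicate 3 (r = 0.38) and control replicate 2 (r = 0.24). Results that rest on the first pair are given with and without it. Of 12 hepatocyte markers, all passed the filter and their summed level was 19590 to 26810 CPM in the knockdowns and 20360 to 31600 CPM in the controls, led by APOB, a protein of lipoproteins, and SERPINA1, alpha-1 antitrypsin. ALB, serum albumin, was at 22.6 to 25.8 CPM in the knockdowns and 21.0 to 21.7 CPM in the controls. Of these 12 only TTR, transthyretin, was past the test, with a log2 fold change of 1.54 (edgeR adjusted p = 0.0243). Of 8 immune markers 4 passed the filter, with sums of 49.9 to 57.5 CPM in the knockdowns and 51.2 to 68.0 CPM in the controls, CD3E and CD14 being at 0 in 5 of 6 libraries each, and with PTPRC past the test at a mean of 1.78 CPM in the knockdowns and 0.448 CPM in the controls. Of 10 fibroblast and endothelial markers 3 passed, with sums of 15.5 to 18 CPM in the knockdowns and 17.7 to 28.8 CPM in the controls, KDR, LUM and COL3A1 were at 0 throughout, and PDGFRB was lower in the knockdown (-0.90, edgeR adjusted p = 0.0402). PDGFRB was at -0.57 with GC and length offsets (edgeR adjusted p = 0.102) and at -0.085 with transcript length offsets (edgeR adjusted p = 0.906), and PTPRC missed the threshold in DESeq2 (adjusted p = 0.0543). The part of these markers in the results on the zinc finger genes was not tested.

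With SLU7 knocked down, the zinc finger genes of 19q13.41 lay mostly slightly above their control level, and none passed the test. Of the 36 members, 29 passed the filter on low counts, and 0 of these 29 were past an adjusted p of 0.05 in edgeR's quasi-likelihood test, against 13.9% of all 17109 genes tested, 5.93% higher and 7.93% lower. Of 11755 genes with a mean count in the range of the tested members (14.7 to 262.2), 1577 were past it. At an unadjusted p under 0.05, 6 members were higher, where 15.1% of all genes were, and 0 members were lower, where 16.9% of all genes were. DESeq2 also called 0 members, with 14.7% of all genes called. Limma on log2(TPM + 1), a scale on which the median of all genes was shifted up by 0.35, called 9 members, all higher, with 17.4% of all genes called higher and 0.877% lower. Without control replicate 1, edgeR called 3 members (ZNF432, ZNF677 and ZNF600), all higher, with 25.3% of all genes called, and without both that library and knockdown replicate 3 it called 5 members, with 29.8% of all genes called. The log2 fold change was above 0 in 25 of the 29 (86.2%), against 49.6% of all genes tested, and its median was 0.27 over the members and -0.01 over all genes. It ranged from -0.52 (ZNF836) to 0.92 (ZNF432). Median GC content was 44.5% over the tested members and 48.8% over all genes with sequence, and with offsets for GC content and length the members' median was 0.14, with 23 of 29 above 0. In bulk RNA, fewer cells that express a gene and less RNA per cell cannot be told apart.

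**Figure D2:**
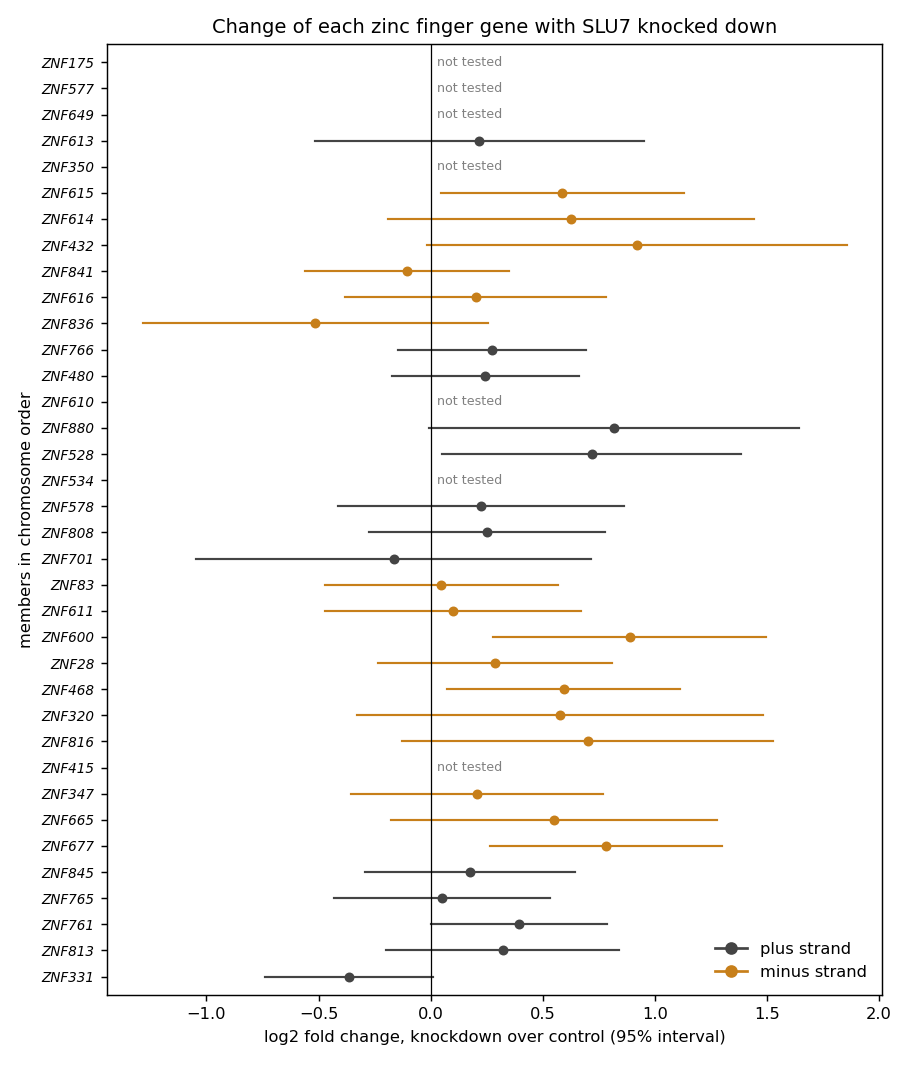
Log2 fold change of each member, knockdown over control, with its 95% interval (edgeR, 3 libraries per group), from the first gene of the stretch at the top to the last at the bottom. Points lie mostly right of 0, from -0.52 to 0.92, and 7 members with too few counts have no value.

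The median half-width of a 95% interval was 0.56 on the log2 scale, and 16 of the 29 intervals lay within 1 log2 unit of 0 on both sides. The other 13 reached past 1 log2 unit on at least one side, so these data do not resolve whether those genes moved by that much. The groups did not overlap in 7 members, 6 of them higher in the knockdown and 1 lower, while 36.7% of all tested genes had groups that did not overlap, 17.9% higher and 18.8% lower.

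Summed over the 29 tested members, the level was 323.0, 303.2 and 299.1 CPM in the knockdowns, against 285.2, 252.7 and 263.7 CPM in the controls. Each knockdown sum lay above each control sum. The median member stood at 8.91, 8.86 and 8.997 CPM in the knockdowns and at 7.19, 6.16 and 6.45 CPM in the controls. Along the chromosome, the median log2 fold change was 0.56 over 16 tested members on the minus strand, with 14 above 0, and 0.24 over 13 on the plus strand, with 11 above 0. Strands were not tested against each other.

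The smallest p-value belonged to ZNF677 (ENSG00000197928, chr19:53235381-53254898, minus strand), a KRAB zinc finger gene described as silenced by promoter methylation in several carcinomas. It had 9.99, 8.83 and 12 CPM in the knockdowns, against 7.19, 5.07 and 5.63 CPM in the controls, so every knockdown library lay above every control library. The log2 fold change was 0.78 (95% interval 0.26 to 1.30, edgeR adjusted p = 0.0526). Over the alternatives, ZNF677 was past the threshold without structural and mitochondrial RNA (edgeR adjusted p = 0.0465), without control replicate 1 (edgeR adjusted p = 0.0215), without that library and knockdown replicate 3 (edgeR adjusted p = 0.0297) and by limma on log2(TPM + 1).

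ZNF600 (ENSG00000189190, chr19:52749942-52786807, minus strand), a gene of the paralogous group in the middle of the stretch, came next. It had 8.19, 12.02 and 8.13 CPM in the knockdowns and 5.94, 3.75 and 5.49 CPM in the controls. The groups did not overlap, and knockdown replicate 2 was the highest library. This came to a log2 fold change of 0.89 (95% interval 0.28 to 1.495, edgeR adjusted p = 0.0584). Without control replicate 1 it was 1.01 (edgeR adjusted p = 0.0335).

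ZNF468 (ENSG00000204604, chr19:52838008-52890375, minus strand) had 16.4, 16.0 and 11.1 CPM in the knockdowns and 8.58, 8.63 and 11.9 CPM in the controls. Knockdown replicate 3 lay below control replicate 3, so the groups overlapped. On the log2 scale the change was 0.59 (95% interval 0.07 to 1.11, edgeR adjusted p = 0.114), and as given above 63.3% of the gene's words are shared with another gene, 61.8% with another of the 36.

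ZNF615 (ENSG00000197619, chr19:51991332-52008230, minus strand) had 8.48, 6.83 and 7.73 CPM in the knockdowns and 4.15, 6.16 and 5.03 CPM in the controls, without overlap. Its neighbour ZNF614 (ENSG00000142556, chr19:52012765-52030240, minus strand) had 4.70, 3.66 and 2.43 CPM in the knockdowns and 2.35, 1.69 and 2.94 CPM in the controls, with overlap. The log2 fold changes were alike in size, 0.59 (95% interval 0.05 to 1.13) for ZNF615 and 0.63 (95% interval -0.19 to 1.44) for ZNF614, and the spread between libraries was larger for ZNF614.

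The next gene along the same strand is ZNF432 (ENSG00000256087, chr19:52031379-52095738), whose product has been described as a reader of poly(ADP-ribose) in DNA repair. ZNF432 had 5.31, 7.20 and 9.27 CPM in the knockdowns and 6.41, 2.69 and 2.31 CPM in the controls. Control replicate 1 stood above knockdown replicate 1 and apart from the other control libraries. ZNF432 had the largest log2 fold change of the tested members, 0.92 (95% interval -0.02 to 1.86, edgeR adjusted p = 0.162). Without control replicate 1 it was 1.53 (edgeR adjusted p = 0.0121), so the call for this gene turned on 1 library.

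On the plus strand, ZNF880 (ENSG00000221923, chr19:52369917-52385795) had 6.92, 5.02 and 2.79 CPM in the knockdowns and 3.32, 2.81 and 2.32 CPM in the controls. Knockdown replicate 3 fell within the range of the controls. The log2 fold change of ZNF880 was 0.82 (95% interval -0.01 to 1.64, edgeR adjusted p = 0.160). The adjacent gene ZNF528 (ENSG00000167555, chr19:52397849-52418412) had 3.25, 3.54 and 3.77 CPM in the knockdowns and 1.90, 2.42 and 2.08 CPM in the controls. Its groups did not overlap and were tight, and the log2 fold change was 0.72 (95% interval 0.05 to 1.38, edgeR adjusted p = 0.132).

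ZNF761 (ENSG00000160336, chr19:53431993-53458261, plus strand) was among the more abundant of these genes. It had 18.6, 19.2 and 22.0 CPM in the knockdowns and 13.08, 15.9 and 16.4 CPM in the controls, without overlap. Its log2 fold change was 0.39 (95% interval 0.00 to 0.79, edgeR adjusted p = 0.154).

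ZNF816 (ENSG00000180257, chr19:52949379-52962911, minus strand) had 6.12, 4.98 and 3.36 CPM in the knockdowns and 2.01, 4.29 and 2.68 CPM in the controls, which overlapped. ZNF665 (ENSG00000197497, chr19:53159213-53193386, minus strand) had 2.97, 2.84 and 2.21 CPM in the knockdowns and 1.94, 1.54 and 1.90 CPM in the controls, which did not. The log2 fold changes were 0.70 (95% interval -0.13 to 1.53) for ZNF816 and 0.55 (95% interval -0.18 to 1.28) for ZNF665.

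ZNF331 (ENSG00000130844, chr19:53519527-53580269, plus strand), the last gene of the stretch, ran the other way. The gene is imprinted and was first described at breakpoints of thyroid adenomas. It had 29.3, 35.2 and 35.7 CPM in the knockdowns, against 47.6, 45.2 and 36.3 CPM in the controls. Every knockdown library lay below every control library, with control replicate 3 only just above knockdown replicate 3. This gave a log2 fold change of -0.37 (95% interval -0.74 to 0.01, edgeR adjusted p = 0.165). On log2(TPM + 1) its sign was the opposite, at 0.12, below the shift of 0.35 that all genes had on that scale.

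**Figure D3:**
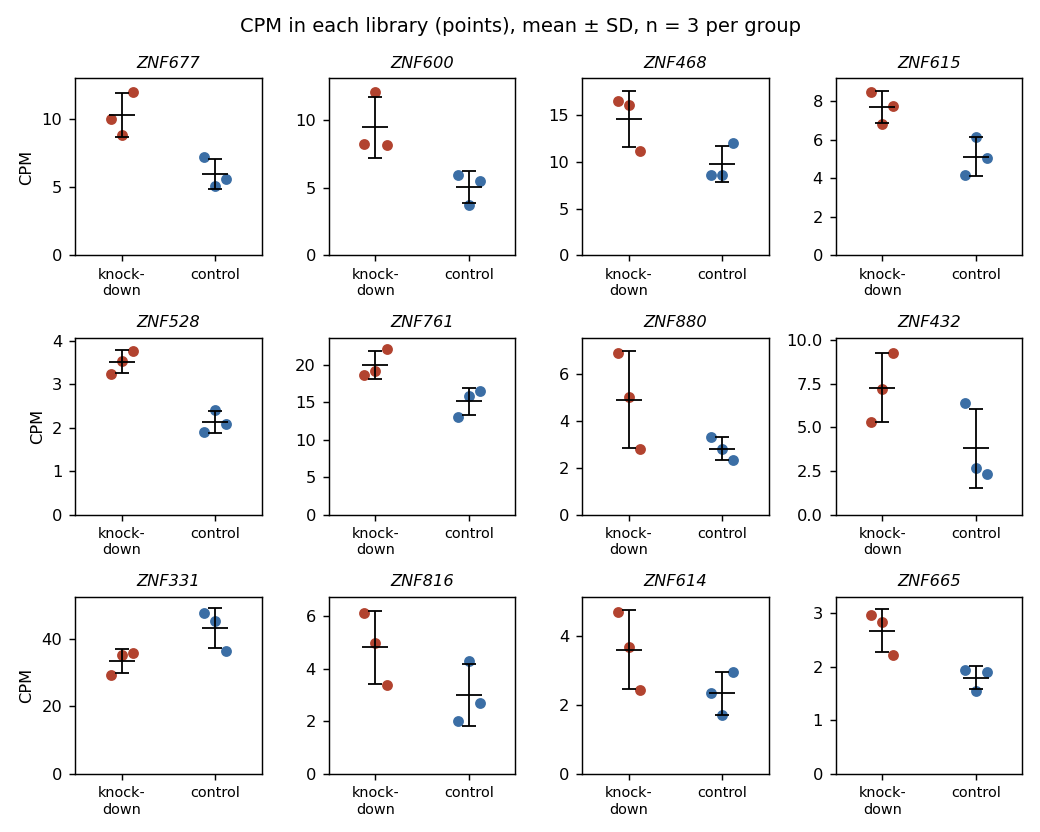
TMM-scaled CPM of the 12 members with the smallest p, one point per library, knockdown (red) left of control (blue), with mean ± SD (n = 3 each); each panel has its own axis from 0. ZNF677, ZNF600, ZNF615, ZNF528, ZNF761 and ZNF665 are higher in all 3 knockdowns than in any control, and ZNF331 is lower.

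Among the 17 other tested members the groups overlapped in all. ZNF836 (-0.52, 95% interval -1.28 to 0.25), ZNF701 (-0.16) and ZNF841 (-0.11) had log2 fold changes below 0. ZNF320 had 0.58 (95% interval -0.33 to 1.48), ZNF813 0.32, ZNF28 0.29, ZNF766 0.27 and ZNF808 0.25; loss of ZNF808, which silences a family of endogenous retroviral elements, causes pancreatic agenesis in humans. ZNF480 had 0.24, ZNF578 0.22, ZNF613 0.22, ZNF347 0.21, ZNF616 0.20, ZNF845 0.18, ZNF611 0.10, ZNF765 0.05 and ZNF83 0.05. The narrowest intervals in this group belonged to the more abundant genes, as in ZNF480 (-0.17 to 0.66), and the widest to ZNF320 and ZNF701 (-1.05 to 0.72).

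The 7 members below the filter had few counts in all 6 libraries together. ZNF610 had 54.1 estimated counts, ZNF577 42.9, ZNF175 42.5, ZNF415 15.5, ZNF350 14.1 and ZNF649 10.0. ZNF350 encodes ZBRK1, a repressor that works with BRCA1, and ZNF175 encodes OTK18, described in macrophages infected with HIV. ZNF415 had 4.21, 5.13 and 3.04 counts in the knockdowns and 1, 1 and 1.09 counts in the controls. ZNF534 was at 0 in all 6 libraries.

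Per unit of transcript length, the members were low. ZNF331 stood first in both groups, with 12.1, 16.2 and 18.8 TPM (a level scaled for transcript length and library size) in the knockdowns and 14.8, 14.1 and 13.6 TPM in the controls. ZNF616 was second in both, at 8.46 ± 2.92 TPM in the knockdowns and 4.80 ± 3.06 TPM in the controls (SD, n = 3 each), and the step from ZNF331 to it was larger than the spread in each group. From ZNF616 down to ZNF841, the mean levels in the knockdowns lay between 8.46 and 4.12 TPM in steps smaller than the larger SD of the 2 genes involved, so the order there is not resolved. In the knockdowns ZNF761 (8.22 ± 3.42 TPM), ZNF468 (6.18 ± 1.82 TPM) and ZNF432 (5.998 ± 3.40 TPM) followed, and in the controls ZNF83 (4.11 ± 1.80 TPM), ZNF611 (3.66 ± 0.26 TPM) and ZNF766 (3.30 ± 0.94 TPM) did. Summed TPM of the 36 members was 120.1, 116.2 and 130.1 in the knockdowns and 78.2, 55.0 and 73.3 in the controls, a scale on which most genes stood higher in the knockdown.

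The distribution of changes was set beside other zinc finger genes. Of 419 other tested genes with a ZNF symbol, 47 were past the test and higher and 5 were past it and lower, together 12.4%, with 314 above 0 and a median log2 fold change of 0.36. Over all genes tested 13.9% were past it, 5.93% higher and 7.93% lower. In the 19p12 cluster the median was 0.33, with 31 of 33 above 0 and 2 past the test, both higher. One is ZNF493, which had 76.2 ± 1.8 CPM in the knockdowns and 49.6 ± 5.2 CPM in the controls (SD, n = 3 each; log2 fold change 0.62, edgeR adjusted p = 0.0250). The other is ZNF100, with 0.69 (edgeR adjusted p = 0.0495). The 19q13.12 cluster had a median of 0.42, with 26 of 33 above 0, and ZNF527 (0.85, edgeR adjusted p = 0.0291) and ZNF461 (0.83, edgeR adjusted p = 0.0469) past the test. In 19q13.43 the median was 0.35 over 45 genes, with 6 higher, among them ZNF419 (1.005), ZNF549 (0.90) and ZNF304 (0.86), and 1 lower, ZNF324 (-0.98). A positive median was thus present in the 3 other clusters as well, and the clusters were not tested against each other. With GC and length offsets the medians were 0.18 in 19p12, 0.25 in 19q13.12 and 0.35 in 19q13.43, and with transcript length offsets 0.16, 0.13 and 0.28 in that order of clusters. Neither fit left a call in 19p12 or 19q13.12, and ZNF324 was at -0.51 (edgeR adjusted p = 0.152) with GC and length offsets. In 19q13.43, 5 genes were called higher and 0 lower with GC and length offsets. With transcript length offsets 0 were called higher there and 1 lower.

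**Figure D4:**
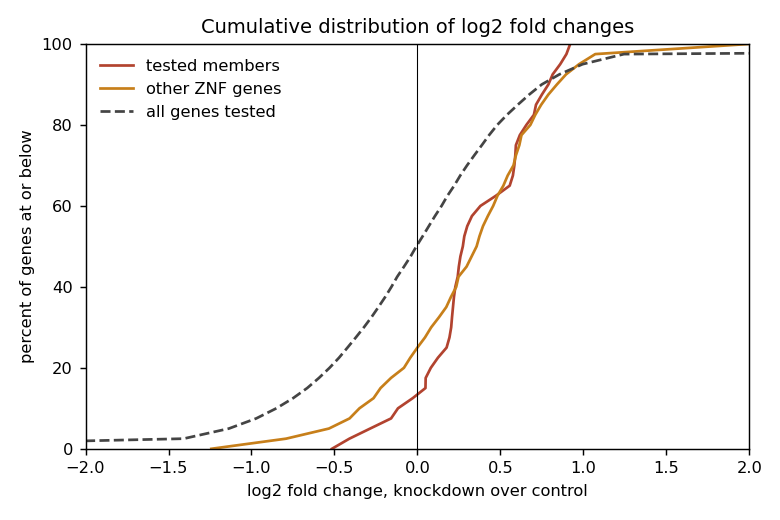
Cumulative percent of genes at or below each log2 fold change (knockdown over control) for the 29 tested members (red), the 419 other tested ZNF genes (orange) and all 17109 genes tested (dashed); the axis is drawn from -2 to 2. The member curve and the curve of the other ZNF genes cross the halfway line right of 0, at 0.27 and 0.36, and the curve of all genes crosses it at -0.01.

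Within the same stretch, 7 zinc finger genes outside the 36 were tested and all had a log2 fold change above 0 (median 0.43), with 0 past the edgeR test, 2 at an unadjusted p under 0.05 and 0 by DESeq2. ZNF160 had 33.7, 30.6 and 32.4 CPM in the knockdowns and 27.0, 19.7 and 25.0 CPM in the controls, and ZNF525 had 10.7, 12.8 and 8.97 CPM in the knockdowns and 4.06, 7.98 and 7.74 CPM in the controls. Neither gene's groups overlapped. A list of genes of the region that are no zinc finger genes was not held to the bounds of the stretch. Of its 9 tested genes, 4 were above 0, with a median of -0.02. MYADM, a myeloid-associated differentiation marker, fell, to 10.7, 9.45 and 8.11 CPM in the knockdowns against 15.5, 29.3 and 23.4 CPM in the controls (log2 fold change -1.27, edgeR adjusted p = 0.0184). CNOT3, a subunit of the CCR4-NOT deadenylase, rose, with 24.9, 22.1 and 30.4 CPM in the knockdowns and 14.96, 13.09 and 15.9 CPM in the controls (0.82, edgeR adjusted p = 0.0229). With transcript length offsets neither was past the test, MYADM at -1.304 (edgeR adjusted p = 0.0546) and CNOT3 at 0.39 (edgeR adjusted p = 0.398).

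The partners of KRAB proteins were tested in the same fit. Of 28 corepressor and heterochromatin genes, 2 rose and 0 fell (7.14%), against 5.93% of all genes tested higher and 7.93% lower. At an unadjusted p under 0.05 in edgeR, 5 were higher and 3 lower, against 15.1% and 16.9% of all genes. DESeq2 called 1 higher and 0 lower. The log2 fold change was above 0 in 15 of the 28, with a median of 0.01. MORC3, an ATPase of nuclear bodies, had 29.9, 26.0 and 23.4 CPM in the knockdowns and 17.4, 16.6 and 18.1 CPM in the controls (0.61, edgeR adjusted p = 0.0402), a call that was lost in DESeq2 (adjusted p = 0.0532) and with GC and length offsets (0.38, edgeR adjusted p = 0.119). Of 5 genes around the HUSH complex, which silences retroelements, 1 rose, where 5.93% of all genes tested did. That gene, MORC2, a compaction ATPase that works with HUSH, had 55.7, 58.6 and 64.6 CPM in the knockdowns and 38.1, 30.6 and 35.5 CPM in the controls (0.78, edgeR adjusted p = 0.0160).

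Because SLU7 is a splicing factor, each gene's counts were also split into 4 classes by the annotated type of the transcript. These were transcripts that keep an intron, transcripts subject to nonsense-mediated decay, protein-coding transcripts and all others. Over the 36 members, retained-intron transcripts held 3.90 ± 0.79% of the counts in the knockdowns and 3.89 ± 0.47% in the controls (SD, n = 3 each). Over all genes the same class held 6.97 ± 0.21% in the knockdowns and 5.27 ± 0.34% in the controls, and over the other ZNF genes it held 9.47 ± 0.17% in the knockdowns and 8.38 ± 0.46% in the controls. Decay transcripts held 4.16 ± 2.001% of the members' counts in the knockdowns and 4.29 ± 0.63% in the controls, and protein-coding transcripts 89.3 ± 1.1% in the knockdowns and 89.4 ± 1.3% in the controls. The members thus differed between the groups by less than their spread in these 3 classes.

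Class usage could be tested in 5 members, with 10 classes, and 0 classes were past an adjusted p of 0.05 in edgeR's diffSpliceDGE, against 0.717% of all 16882 classes and 1.67% of all 6838 genes. None was at an unadjusted p under 0.05, where 8.67% of all classes were, and limma's diffSplice called 0 as well. The smallest p, 0.292, belonged to the retained-intron class of ZNF677, which held 37.8%, 30.9% and 19.4% of the gene's counts in the knockdowns and 37.3%, 58.1% and 53.0% in the controls. Knockdown replicate 1 and control replicate 1 overlapped there, and an exact two-sided permutation test of the shares gave p = 0.2, where 3 against 3 cannot go below 0.1. The pooled share of the class was 29.2% in the knockdowns and 47.9% in the controls. The protein-coding class of ZNF677 held 60.3%, 57.7% and 80.6% in the knockdowns and 62.7%, 41.9% and 43.8% in the controls, which also overlapped. In ZNF611 the retained-intron class held 32.5%, 16.0% and 39.7% in the knockdowns and 29.5%, 14.6% and 27.3% in the controls, which overlapped.

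The decay class of ZNF808 came from 1 library in its apparent difference. It held 41.1%, 40.5% and 0% of the gene's counts in the knockdowns and 41.0%, 41.1% and 32.5% in the controls, so knockdown replicate 3 alone stood apart, and the log2 usage change of -0.35 was 0.06 without that library. The decay class of ZNF468 held 10.8%, 26.6% and 13.11% in the knockdowns and 11.9%, 30.6% and 25.3% in the controls, with overlap. Transcripts of other classes held 4.58%, 2.27% and 4.92% of ZNF331 in the knockdowns and 4.31%, 6.56% and 7.35% in the controls. ZNF528 was too low for the class test and is given because its shares stood out once seen. Its counts came mostly from retained-intron transcripts, with 85.8%, 52.0% and 74.4% in the knockdowns and 86.8%, 100% and 87.7% in the controls. ZNF528 was not alone among classes too low to test. The decay class of ZNF614 held 23.7%, 36.8% and 16.0% in the knockdowns and 6.23%, 0% and 9.49% in the controls. Groups were also apart in the retained-intron class of ZNF577, in the other transcripts of ZNF600 and ZNF350, and in the protein-coding classes of ZNF528 and ZNF614. Such shares rest on few counts. The ZNF577 class had 1, 0 and 0 estimated counts in the knockdowns and 2, 2 and 5 in the controls. How often groups are apart over all classes was not computed.

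**Figure D5:**
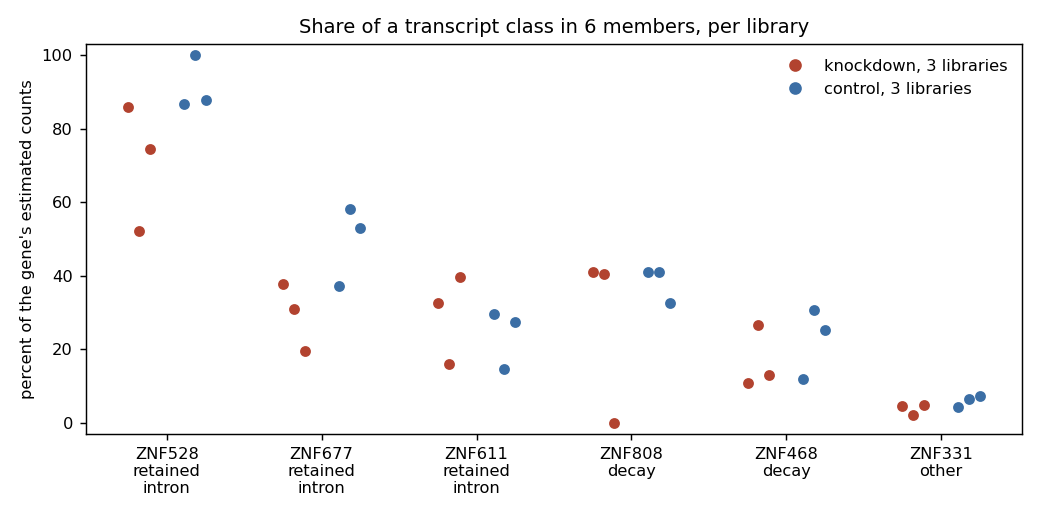
Percent of a gene's estimated counts in the named transcript class, one point per library, knockdown (red) left of control (blue); decay stands for nonsense-mediated decay. The groups overlap in each gene except ZNF528, where the knockdowns (52.0% to 85.8%) lie just below the controls (86.8% to 100%), and ZNF808 has 1 knockdown library at 0%.

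At the level of single transcripts, the files held 334 transcripts of the members, 232 of them with counts and 49 past the filter, in 24 genes. Of these, 0 were past an adjusted p of 0.05 in edgeR, as were 0% of all 43128 transcripts. At an unadjusted p under 0.05, 3 were higher and 1 was lower, against 16.1% of all transcripts in either direction. No other tool was run on single transcripts.

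The smallest p fell on a ZNF28 transcript, ENST00000391783.6, a protein-coding transcript of 1827 bases. It had 15.6, 18.2 and 9.87 estimated counts in the knockdowns and 0 in each of the 3 controls (edgeR adjusted p = 0.108). ZNF28 as a whole had 119.8, 100.7 and 58.6 counts in the knockdowns and 93.0, 101.4 and 112.4 counts in the controls, so the gene's total overlapped between the groups while this transcript did not. Of the words of ZNF28, 25.9% are shared with other genes, as given above. Words shared among transcripts of the same gene, which bear on the values of single transcripts here and below, were not counted.

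ZNF331 had both a higher and a lower transcript. ENST00000253144.13 had 38.8, 38.2 and 31.6 estimated counts in the knockdowns, against 10.6, 0 and under 0.1 in the controls (log2 fold change 3.61, SE 1.33, edgeR adjusted p = 0.267). ENST00000511154.5 had 11.8, 8.64 and 28.98 counts in the knockdowns, against 56.4, 78.9 and 100.2 in the controls (-1.88, SE 0.57, edgeR adjusted p = 0.199). The groups of both transcripts were apart, while neither passed the adjusted threshold. The transcripts named here and below were picked by their small p, so groups that are apart follow in part from that choice. The share of all transcripts with groups apart was not computed. Of all genes tested it was 36.7%.

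The transcripts of ZNF331 begin in 3 regions, a grouping made after the transcript values were seen and therefore given without a test. Transcripts that start in chr19:53519527-53521856 took 23.0%, 28.3% and 24.2% of the counts assigned to the gene in the knockdowns and 8.07%, 24.6% and 8.89% in the controls. Those that start in chr19:53536323-53538788 took 51.8%, 28.1% and 29.5% in the knockdowns and 43.6%, 34.6% and 61.4% in the controls. Those that start in chr19:53554499-53555487 took 25.1%, 43.7% and 46.2% in the knockdowns and 48.4%, 40.8% and 29.7% in the controls. The groups overlapped for each region, with control replicate 2 close to the knockdowns in the first.

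The remaining transcripts with a small p were as follows. ZNF468 transcript ENST00000243639.8, protein coding, had 75.5, 51.4 and 41.9 counts in the knockdowns and 41.4, 32.5 and 34.6 in the controls (0.93, SE 0.30, edgeR adjusted p = 0.224). ZNF432 transcript ENST00000597273.1, a short one of 624 bases, had 14.02, 19.04 and 16.9 counts in the knockdowns and 9.60, 0 and 5.84 in the controls (edgeR adjusted p = 0.404). Both sets of knockdown libraries lay above all controls. The retained-intron transcript ENST00000479718.1 of ZNF528 had 12.9, 10.0 and 13.38 counts in the knockdowns and 5.91, 11.1 and 3.71 in the controls, while ENST00000599328.1 of ZNF677, also annotated as retained intron, had 11.9, 7.79 and 3.48 counts in the knockdowns and 21.4, 13.8 and 19.9 in the controls. These are counts not scaled to depth, and the controls were deeper. Scaled to CPM, the ZNF528 transcript had 1.99, 1.84 and 2.499 in the knockdowns and 0.743, 1.49 and 0.475 in the controls, without overlap. The ZNF677 transcript had 1.83, 1.44 and 0.649 CPM in the knockdowns and 2.68, 1.84 and 2.54 CPM in the controls, which touched without overlapping. ZNF600 transcript ENST00000648973.1 had 44.3, 25.1 and 17.1 counts in the knockdowns and 20.5, 12.2 and 30.3 in the controls, which overlapped.

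Since the tested members mostly lay on the same side of 0, their start sites were also compared. RefSeq (GRCh38.p14) gave a promoter window, 250 bases before to 50 after the start, for 30 members, in 42 windows, and not for ZNF480, ZNF600, ZNF610, ZNF28, ZNF649 and ZNF665. Only the 250 bases before the start were searched. They held a median of 18 CG dinucleotides over the windows of the members and 11 over all 35116 windows. GGGCGG, the GC box bound by SP1, was present on either strand in 23 of 30 members (76.7%), against 46.2% of 27305 genes with a window. CGGAAG, the core bound by ETS factors, was present in 10 (33.3%) against 19.4%, TATAAA, the TATA box, in 1 (3.33%) against 13%, GCATGCGC, a core of the site bound by NRF1, in 3 (10%) against 3.22%, and ACTACANNT, the start of the site bound by ZNF143, in 1 (3.33%) against 3.98%. Both strands of these 250 bases were searched, N stands for any base, no motif contains another, and a match is a match of letters only.

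Upstream bases are shown for ZNF677 and ZNF468, which were higher at an unadjusted p under 0.05, and for ZNF331, which ran the other way. They run 5′ to 3′ on the gene's strand and stop before any annotated exon of the gene that overlaps the window. Those of ZNF468 and ZNF331 lie inside the annotated gene bodies. ZNF677 has another window, with upstream bases chr19:53254824-53255073, which holds CGGAAG and is not shown. Capitals mark the searched motifs, with the GC box read as CCGCCC where it lies on the opposite strand.
ZNF677 (chr19:53254899-53255123, minus strand): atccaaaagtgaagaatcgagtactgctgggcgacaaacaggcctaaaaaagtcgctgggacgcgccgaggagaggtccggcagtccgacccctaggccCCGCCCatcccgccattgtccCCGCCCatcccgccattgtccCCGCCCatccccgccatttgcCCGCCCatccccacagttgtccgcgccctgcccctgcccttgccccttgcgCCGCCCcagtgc
ZNF468 (chr19:52857650-52857869, minus strand): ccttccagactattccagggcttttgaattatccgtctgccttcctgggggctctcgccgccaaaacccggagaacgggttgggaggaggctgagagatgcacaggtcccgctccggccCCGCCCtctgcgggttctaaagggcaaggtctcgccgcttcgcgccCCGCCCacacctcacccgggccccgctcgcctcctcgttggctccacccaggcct
ZNF331 (chr19:53520764-53520947, plus strand, in the first of the 3 start regions): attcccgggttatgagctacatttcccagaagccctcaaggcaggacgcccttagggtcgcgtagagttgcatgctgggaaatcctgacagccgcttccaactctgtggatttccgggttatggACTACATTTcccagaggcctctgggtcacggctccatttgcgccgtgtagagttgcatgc
ZNF331 has 6 windows, of which the first is shown, and none of them holds the GC box. The GC box was found for ZNF836, ZNF841 and ZNF701, which like ZNF331 were below 0. It was not found for ZNF615, ZNF614 and ZNF613, which were above 0. The other tested members above 0 that had a window held it. Whether its presence goes with the sign of the log2 fold change was not tested.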

How the data were processed

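RNA was sequenced from 3 knockdown and 3 control libraries made with a ScriptSeq mRNA-Seq kit, per the labels' protocols. FastQC 0.11.8, Trimmomatic 0.38, kallisto 0.46.1, sleuth 0.30.0 and the build GRCh38 are named in the submitters' processing notes. The estimated counts per transcript were deposited by the authors and are not normalized, per the file headers. The TPM values were deposited by the authors beside them, scaled for effective transcript length, per the file headers. No source used here gives the annotation release or the strand setting, and no test here carries the error of dividing reads among similar sequences.

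Each file held 234485 transcripts, whose estimated counts were summed to 60607 genes and rounded to whole numbers; the 159 pseudoautosomal records of chromosome Y were added to those of X. Positions came from GENCODE 29, which held all 36 members. Genes, transcripts and transcript classes were fitted over the whole table in edgeR 4.0.16 (R 4.3.3), with TMM, filterByExpr (count minimum 10, total 15), the quasi-likelihood test or diffSpliceDGE, and Benjamini-Hochberg adjustment at 0.05. DESeq2 1.42.0, limma 3.58.1 on log2(TPM + 1), other filters, size factors and offsets (a smooth from mgcv 1.9.3 of GC content and length), a replicate block and left-out libraries were alternatives. The steps were tested on simulated data. Total estimated counts of 5191452 to 8693977 per library limit the precision of low genes.

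The rule for the members reads only gene symbols, but the set of members, the gene lists and the tests were chosen with earlier results of these data known. Values of every library are given for the 12 members with the smallest p, the 6 transcript classes and 8 transcripts with the smallest p, and up to 4 genes per other list past the test (2 if none). A gene that this rule names is not reported here. Same-numbered libraries did not deviate together (r = -0.41, 0.11 and -0.37), so the main test has no block.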

Additional observations from a re-analysis of the deposited data

How the results depend on the processing

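The members' median log2 fold change was above 0 under every alternative run, and the number of tested members above 0 was at least 23. The count of members past the gene test, 0 in the reported fit, was 9 on log2(TPM + 1), 1 with no filter (ZNF600), 1 with transcript length offsets (ZNF600), 1 without structural and mitochondrial RNA (ZNF677), 5 without control replicate 1 and knockdown replicate 3 together (ZNF432, ZNF600, ZNF880, ZNF677 and ZNF468), and between 0 and 3 when 1 library was left out, the 3 being without control replicate 1. The median log2 fold change of the members was 0.62 on log2(TPM + 1), or 0.26 relative to the shift of 0.35 there, and 0.14 with GC and length offsets. SLU7 was -0.063 on log2(TPM + 1) (limma adjusted p = 0.868), -0.64 with transcript length offsets (edgeR adjusted p = 0.116), -1.004 with the replicate block (edgeR adjusted p = 0.0663), and between -1.08 and -0.92 when 1 library was left out, where it missed the threshold without knockdown replicate 1 (edgeR adjusted p = 0.0556) and without knockdown replicate 2 (edgeR adjusted p = 0.0805). On log2(TPM + 1) ZNF331 turned to 0.12 and PDGFRB to 0.40. The log2 usage change of the ZNF808 decay class turned to 0.12 without control replicate 1 and knockdown replicate 3 together, and ranged from -0.66 to 0.062 when 1 library was left out, the 0.062 being without knockdown replicate 3. No transcript and no class of a member was past the test under any alternative run. Over all genes, 2371 were past the reported test, 42.8% of them higher. The replicate block, which the libraries' deviations do not bear out as a pairing, gave 0 genes past the test, length offsets 966, GC and length offsets 1900 (49.3% higher), log2(TPM + 1) 3135 (95.2% higher), the fit without both libraries 5248, and fits without 1 library 0 to 4457, the 0 being without knockdown replicate 2. Of the 15 genes outside the members named as past the test, 8 remained past it with GC and length offsets, 4 with transcript length offsets (MORC2, PTPRC, TTR and ZNF324), 12 in DESeq2, 14 without control replicate 1, 1 without knockdown replicate 1 (ZNF419), 2 without knockdown replicate 3 (ZNF304 and ZNF549), and 0 without knockdown replicate 2, without control replicate 2, without control replicate 3 or with the replicate block. The cause of these differences was not tested. Depth limits what can be said of members with few counts.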
